A study of Mus musculus with 36 samples.

Results

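The retinoid metabolism genes described here are 8 genes of vitamin A handling, chosen by name: Rbp4, Lrat, Aldh1a1, Aldh1a7, Aldh1a2, Aldh1a3, Cyp26a1 and Rarb. Each symbol was matched to 1 Ensembl identifier, so that 8 of the 78239 genes counted in each library are described. RNA was sequenced from the kidney, liver and heart of male wild-type C57BL/6NCrl mice, an inbred substrain, killed at an age of 8, 10 or 12 weeks. Each tissue and age made up a group of 4 libraries, which gave 9 groups and 36 libraries in all. All mice were bought from a breeder, ate standard chow, were housed in small groups and were killed under ketamine and xylazine anaesthesia, without any other treatment. The labels do not say whether the tissues that carry the same number came from a single mouse.

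Vitamin A leaves the liver as retinol bound to Rbp4, the plasma retinol carrier, and is stored in hepatic stellate cells as retinyl esters made by Lrat, the acyltransferase that esterifies retinol. In target cells retinol is oxidised to retinal and then, by the retinal dehydrogenases Aldh1a1, Aldh1a2 and Aldh1a3, to retinoic acid, which binds nuclear receptors such as Rarb. Cyp26a1 hydroxylates retinoic acid and so removes it, and both Cyp26a1 and Rarb are classical target genes of the acid. Aldh1a7 is a rodent paralogue of Aldh1a1 with little reported activity on retinal.

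Aldh1a1 and Aldh1a7 are shown first, since read pairs of near-identical genes can be confused. The coding sequences of both canonical transcripts were 1506 bases long in GRCm39 and shared 91.6% of their bases, with 126 differences. The first 120 coding bases, from the first 2 coding exons, are printed 5′ to 3′ with the 10 positions at which they differ in capitals. They lie at chr19:20579376-20579441 and chr19:20588277-20588330 on the plus strand for Aldh1a1, and at chr19:20704811-20704876 and chr19:20704373-20704426 on the minus strand for Aldh1a7.
Aldh1a1: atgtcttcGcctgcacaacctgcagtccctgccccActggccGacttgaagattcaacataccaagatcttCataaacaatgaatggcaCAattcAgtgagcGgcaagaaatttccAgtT
Aldh1a7: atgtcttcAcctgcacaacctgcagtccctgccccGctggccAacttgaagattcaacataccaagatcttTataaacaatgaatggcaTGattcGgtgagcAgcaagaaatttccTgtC
The longest stretch without a difference between the 2 transcripts was 100 bases, and no window of 150 bases, the length of a single read, occurred in both. The other pairs among the 4 Aldh1a genes shared between 68.2% and 70.1% of coding bases, without any common window of 50 bases. The authors' counter adds a pair to a gene only where it aligns uniquely, so a pair that lies wholly in a stretch shared by both is left out of the counts.

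Retinoic acid receptors bind direct repeats of a hexamer separated by 5 bases, and such a repeat was looked for because 2 of the genes are known targets of the acid. The hexamers searched were AGGTCA or AGTTCA, as well as GGGTCA or GGTTCA, in any pair with a spacer of 5 bases, on both strands, from 250 bases before to 50 bases after the start of the canonical transcript. A repeat stood in 12 of 21757 such promoters of protein-coding genes (0.0552%), among them that of Cyp26a1. The 57 bases just before its start, chr19:37686184-37686240 of GRCm39 on the plus strand, are shown with the hexamers, which read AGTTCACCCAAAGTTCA on the minus strand, in capitals.
Cyp26a1: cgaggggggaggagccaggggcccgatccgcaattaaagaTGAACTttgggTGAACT
The canonical promoter of Rarb held none, but the windows of 5 of its 16 annotated starts did, all of them downstream of the canonical start. The repeat lay at chr14:5894234-5894250, on the plus strand like the gene, and is shown in capitals within chr14:5894228-5894256.
Rarb: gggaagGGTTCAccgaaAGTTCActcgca
With all annotated starts considered, 63 of 21757 genes (0.29%) held a repeat. None was found at an annotated start of the other 6 genes, which says only that these letters were not in those windows.

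The genes lie on 5 chromosomes of GRCm39. Aldh1a1 (ENSMUSG00000053279, chr19:20469539-20622825, plus strand) and Aldh1a7 (ENSMUSG00000024747, chr19:20667107-20704932, minus strand) are neighbours, and the same chromosome holds Cyp26a1 (ENSMUSG00000024987, chr19:37686241-37689984, plus strand) close to Rbp4 (ENSMUSG00000024990, chr19:38105066-38113754, minus strand). Aldh1a2 (ENSMUSG00000013584) is at chr9:71122630-71203527 on the plus strand, Aldh1a3 (ENSMUSG00000015134) at chr7:66040638-66077850 on the minus strand, Lrat (ENSMUSG00000028003) at chr3:82799886-82811288 on the minus strand and Rarb (ENSMUSG00000017491) at chr14:5650540-6041094 on the plus strand. The libraries keep no strand, and a gene on the opposite strand shares 31.2% of the exonic bases of Rarb (Top2b), 15.6% of Rbp4 (Ffar4), 8.44% of Aldh1a2, 8.36% of Lrat and 6.01% of Aldh1a1, so pairs within these bases could be assigned to neither gene.

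Between 21031599 and 33637390 read pairs per library were counted on genes. Levels are given as CPM, the counts of a gene scaled to a common library size, with a single TMM scaling over all 36 libraries, and in every group as the mean ± SD of 4 libraries. The summed CPM of 5 defining genes of heart muscle was 42398 to 56987 in heart libraries and at most 1.30 in the others, that of 5 kidney genes was 7119 to 8087 in kidney and at most 1.44 elsewhere, and that of 5 liver genes was 89288 to 158313 in liver, 184 to 245 in kidney and 0 to 20.6 in heart. The labels of tissue thus matched the defining genes in each of the 36 libraries. After the authors' filter on low counts, 8 of the 8 genes were tested between ages in kidney, 7 in liver (not Aldh1a2) and 6 in heart (not Aldh1a7 and Cyp26a1). These are bulk tissues, in which fewer cells of a type and less RNA per cell cannot be told apart.

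The liver held by far the highest levels of 5 of the 8 genes, namely Rbp4, Lrat, Aldh1a1, Aldh1a7 and Cyp26a1, whereas Aldh1a3 was highest in kidney and Aldh1a2 and Rarb were highest in heart. The question here was how carrier, storage, synthesis, removal and receptor genes were distributed over the tissues. The ages were averaged within each tissue in a model of all 36 libraries (edgeR, quasi-likelihood, adjusted p under 0.05). All 8 genes differed between kidney and liver, where 83.1% of the 19716 genes tested did. All 8 also differed between kidney and heart (86.1% of all genes) and 7 between liver and heart (84.2%), so that these counts lie near those of any gene. Aldh1a7 and Cyp26a1 missed the filter on low counts in heart, and Aldh1a2 missed it in liver. Each entered this model only through tissues where it was higher, so its calls against the low tissue cannot be set against these shares.

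**Figure D1:**
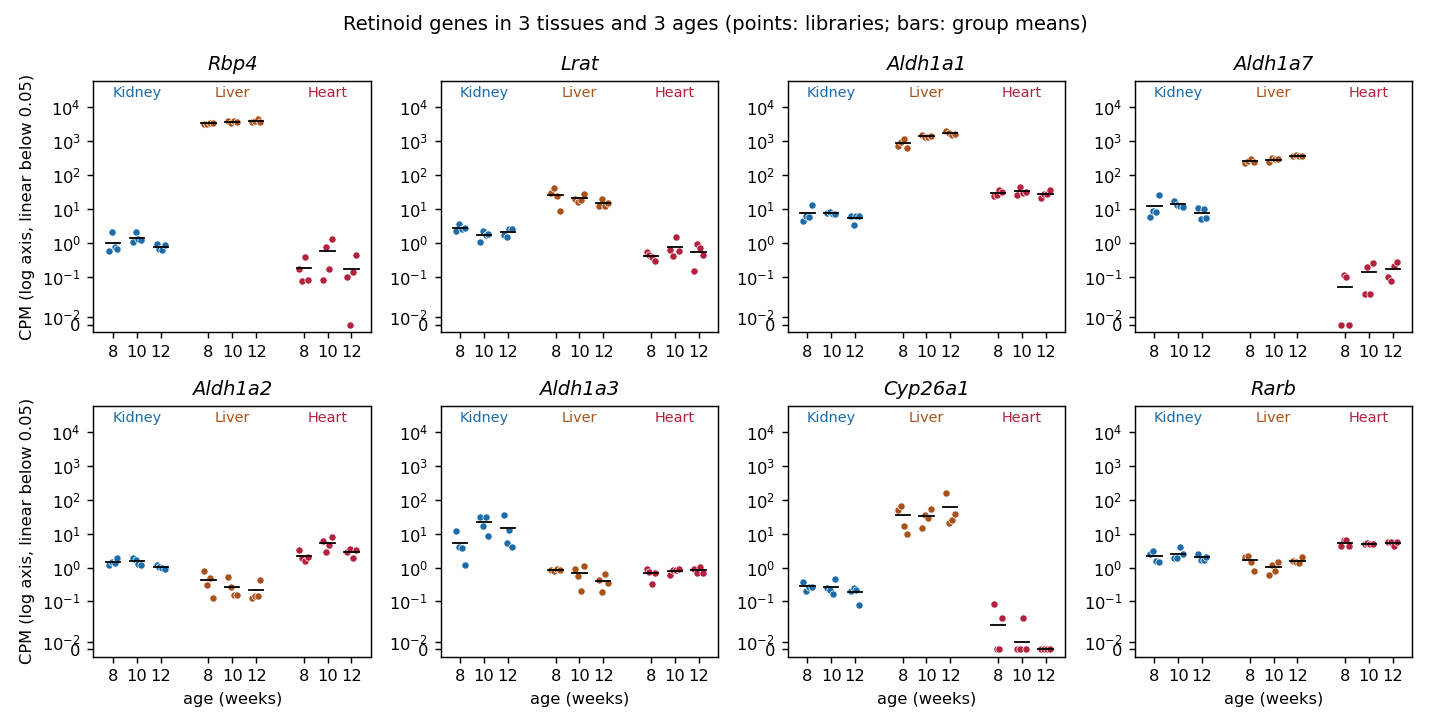
CPM of the 8 genes (one panel each, vertical axis logarithmic above 0.05 and linear below) in kidney, liver and heart at 8, 10 and 12 weeks on the horizontal axis. Each point is 1 library and each bar the mean of 4 libraries. The liver points of Rbp4, Lrat, Aldh1a1, Aldh1a7 and Cyp26a1 lie above all points of the other tissues, those of Aldh1a3 are highest in kidney, and those of Rarb are highest in heart.

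Rbp4, the carrier, ranged from 3181 to 4487 CPM (median 3686) over the 12 liver libraries. In kidney it ranged from 0.575 to 2.09 CPM (median 0.905), and in heart from 0 to 1.26 CPM (median 0.151). The liver thus held nearly all of it, with a log2 fold change of -11.78 ± 0.23 (SE) for kidney against liver and an adjusted p of 2.2e-31 (edgeR). Per kilobase of exon, the mean level of Rbp4 in liver was 2586 CPM. In heart, where Rbp4 had between 0 and 29 counts per library, the level was close to the limit of detection.

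Lrat, the storage enzyme, ranged from 9.04 to 40.9 CPM (median 19.1) in liver, from 1.04 to 3.52 CPM (median 2.26) in kidney and from 0.148 to 1.52 CPM (median 0.498) in heart. The liver and kidney ranges did not overlap. Liver exceeded kidney by a log2 fold change of 3.22, given as -3.22 ± 0.19 for kidney against liver with an adjusted p of 4.0e-17 (edgeR), and kidney exceeded heart by 1.89 ± 0.25 with an adjusted p of 2.1e-08.

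Among the dehydrogenases, the tissues differed in which gene was highest. Per kilobase of exon, liver held 124 CPM of Aldh1a1, 58.0 of Aldh1a7, 0.114 of Aldh1a3 and 0.0662 of Aldh1a2, so that Aldh1a1 led. Kidney held 2.43 CPM per kilobase of Aldh1a3, 2.12 of Aldh1a7, 0.637 of Aldh1a1 and 0.291 of Aldh1a2, and heart held 2.82 of Aldh1a1, 0.754 of Aldh1a2, 0.135 of Aldh1a3 and 0.0222 of Aldh1a7. The 12 libraries of kidney overlapped for Aldh1a3 (1.18 to 34.9 CPM) and Aldh1a7 (4.99 to 26.0 CPM), and their order in kidney is not separated by this spread. Exons of all annotated transcripts were merged for these lengths. Per kilobase of the canonical transcript alone the order within each tissue was the same, with 215 CPM of Aldh1a1 in liver, 3.44 of Aldh1a3 and 1.10 of Aldh1a1 in kidney, and 4.89 of Aldh1a1 and 1.29 of Aldh1a2 in heart.

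Aldh1a1 ranged from 649 to 2027 CPM (median 1378) in liver, from 21.6 to 43.7 CPM (median 28.8) in heart and from 3.28 to 13.2 CPM (median 6.38) in kidney. These 3 ranges were separate. Kidney was below liver by a log2 fold change of -7.56 ± 0.17 and below heart by -2.15 ± 0.14, with adjusted p of 3.9e-29 and 7.7e-16 (edgeR). For Aldh1a7 the order of the lower tissues was the other way round, with 229 to 384 CPM in liver, 4.99 to 26.0 in kidney and 0 to 0.278 in heart. Its log2 fold change was -4.80 ± 0.18 for kidney against liver and 6.63 ± 0.32 for kidney against heart, with adjusted p of 4.4e-23 and 6.9e-20. The heart value rests on 34 counts over 12 libraries. The 2 paralogues thus stood in different proportions, and the ratio of their counts lay between 2.63 and 6.07 in the 12 liver libraries and between 0.444 and 1.15 in the 12 kidney libraries.

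Aldh1a2, the dehydrogenase of embryonic tissues and of mesothelium, ranged from 1.54 to 7.71 CPM (median 3.08) in heart, from 0.923 to 1.92 CPM (median 1.23) in kidney and from 0.122 to 0.803 CPM (median 0.213) in liver. The kidney and liver ranges were separate, and heart and kidney overlapped. Kidney was below heart by a log2 fold change of -1.28 ± 0.18 and above liver by 2.17 ± 0.24, with adjusted p of 3.8e-08 and 3.3e-10 (edgeR). Aldh1a3 was a kidney gene in these tissues, with a range of 1.18 to 34.9 CPM (median 10.2) against 0.192 to 1.07 CPM in liver and 0.337 to 1.03 CPM in heart. Every kidney library lay above every library of the other tissues. The log2 fold change was 4.23 ± 0.37 against liver and 3.93 ± 0.35 against heart, with adjusted p of 1.5e-12 and 2.3e-12. Liver and heart were not separated for Aldh1a3 (-0.31 ± 0.46, adjusted p = 0.55), the single comparison of tissues among these genes that did not pass.

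Cyp26a1, the hydroxylase, ranged from 9.59 to 153 CPM (median 32.8) in liver and from 0.0791 to 0.463 CPM (median 0.236) in kidney, where its log2 fold change against liver was -7.40 ± 0.41 with an adjusted p of 7.3e-17 (edgeR). In heart 4 pairs were counted in all, and 9 of the 12 libraries had none. A count of 0 there allows up to 3 counts, or 0.103 to 0.149 CPM in these libraries, and no fold is given against heart. Rarb, the receptor, was highest in heart, with 4.29 to 6.58 CPM (median 5.22) in heart, 1.49 to 4.00 CPM (median 1.99) in kidney and 0.622 to 2.23 CPM (median 1.45) in liver. The heart range lay above both others, and those of kidney and liver overlapped. Kidney was below heart by a log2 fold change of -1.23 ± 0.15 and above liver by 0.67 ± 0.16, with adjusted p of 2.2e-09 and 0.000353. The directions of all these tissue differences were the same with factors of library size only, although this scaling moved the median log2 fold change of all genes from 0.16 to 0.93 for kidney against liver, from 0.15 to 0.67 for kidney against heart and from 0 to -0.22 for liver against heart.

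In liver, Aldh1a1 was the only one of the 7 genes tested that passed the test between 8 and 12 weeks, and it rose. Its libraries had 721, 936, 1149.5 and 649 CPM at 8 weeks, 1522, 1318, 1337 and 1419 CPM at 10 weeks, and 2027, 1739, 1555 and 1599 CPM at 12 weeks. All 4 libraries of each older age lay above all 4 of each younger age, as did those of 4.79% of all genes at 10 against 8 weeks and 3.44% at 12 against 10 weeks. The group means were 864 ± 226, 1399 ± 92.9 and 1729.7 ± 213 CPM (SD, n = 4). The log2 fold change at 12 against 8 weeks was 1.00 ± 0.16 (SE), with an adjusted p of 0.031 (edgeR), and 0.177% of the 14672 genes tested in liver were called higher. At 10 against 8 weeks it was 0.69 ± 0.16 (adjusted p = 0.12) and at 12 against 10 weeks 0.31 ± 0.16 (adjusted p = 0.41). In these 2 comparisons edgeR called 0 of the 7 genes, beside 0.0204% and 0.0545% of all genes. At an unadjusted p under 0.05 it called 1 in each, Aldh1a1 and Aldh1a7 respectively, beside 14.3% and 14.1% of all genes. At the adjusted p limma-voom called 0 in both, and DESeq2 called the same 1 gene in each. The share of all genes that DESeq2 called is not given, so its calls stand without that comparison.

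The call of Aldh1a1 stands close to the threshold. The adjusted p was 0.0616 without liver 8 weeks replicate 1, 0.0926 without replicate 2 of that age, 0.0505 and 0.0613 without replicates 1 and 4 of 10 weeks, and 0.0871, 0.0937 and 0.0578 without replicates 1, 2 and 3 of 12 weeks, with log2 fold changes between 0.88 and 1.17 over the 12 omissions. Pairs without a place in the genome made up 2.81% to 6.96% of all pairs at 8 weeks, 6.50% to 13.0% at 10 weeks and 6.46% to 9.51% at 12 weeks in liver, and their part in the result was not tested.

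Aldh1a7 had 229, 266, 298 and 247 CPM at 8 weeks, 251, 311, 303 and 294 CPM at 10 weeks and 376, 384, 363 and 357 CPM at 12 weeks in liver. All 12-week libraries lay above all younger ones, and the 8- and 10-week libraries overlapped. Its log2 fold change at 12 against 8 weeks was 0.50 ± 0.10 and narrowly missed the threshold (adjusted p = 0.053, or 0.0401 without liver 10 weeks replicate 2, the one omission that brought it past), whereas the values at 10 against 8 weeks and 12 against 10 weeks were 0.15 ± 0.10 (adjusted p = 0.51) and 0.35 ± 0.10 (adjusted p = 0.13). The ratio of Aldh1a1 to Aldh1a7 counts had a median of 3.34 (2.63 to 3.86) at 8 weeks, 4.63 (4.23 to 6.07) at 10 weeks and 4.50 (4.28 to 5.39) at 12 weeks, so the 8-week ratios lay below those of both later ages.

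**Figure D2:**
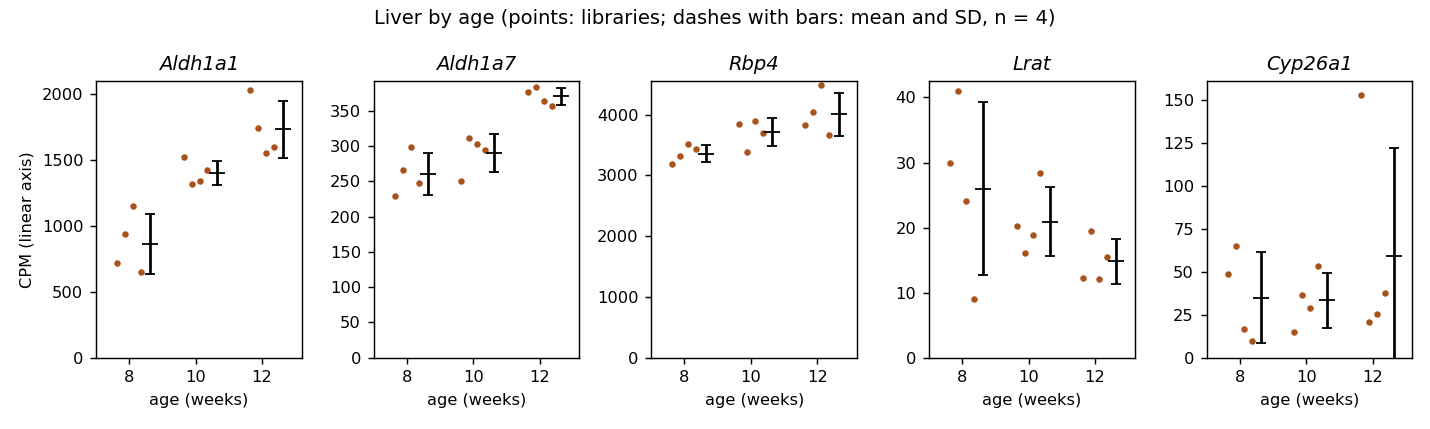
CPM (linear axis from 0) of Aldh1a1, Aldh1a7, Rbp4, Lrat and Cyp26a1 in liver at 8, 10 and 12 weeks. Points are the 4 libraries of each age, dashes with bars the mean and SD, and the SD bar of Cyp26a1 at 12 weeks would reach below 0 and is drawn to the axis. The ages of Aldh1a1 are separate (649 to 1149.5, 1318 to 1522 and 1555 to 2027 CPM), and 1 Cyp26a1 library of 12 weeks stands at 153 CPM.

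Rbp4 had 3181, 3318, 3512 and 3430 CPM at 8 weeks, 3845, 3383, 3896 and 3704 CPM at 10 weeks and 3828, 4036, 4487 and 3667 CPM at 12 weeks in liver. The 12-week libraries lay above those of 8 weeks. A log2 fold change of 0.25 ± 0.09 did not pass (adjusted p = 0.23, edgeR). Counted over the 7 genes tested, the 12-week libraries of Aldh1a1, Aldh1a7 and Rbp4 lay wholly above those of 8 weeks, as did 4.4% of all genes, and those of Aldh1a3 wholly below, as did 3.56%. Aldh1a3 was at the lower end of detection in liver, with 14 to 18 counts at 8 weeks and 4 to 14 counts at 12 weeks, and its log2 fold change of -1.06 ± 0.45 did not pass (adjusted p = 0.29).

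Lrat, which marks stellate cells in liver, had 29.9, 40.9, 24.0 and 9.04 CPM at 8 weeks, 20.3, 16.1, 18.8 and 28.4 CPM at 10 weeks and 12.3, 19.4, 12.1 and 15.5 CPM at 12 weeks. The ages overlapped, chiefly through replicate 4 of 8 weeks. At 12 against 8 weeks the log2 fold change was -0.82 ± 0.34 (adjusted p = 0.28, edgeR). The summed CPM of 8 stellate cell markers without Lrat was 176 to 358 at 8 weeks, 251 to 296 at 10 weeks and 148 to 255 at 12 weeks, with log2 fold changes below 0 for 8 of 8 at 12 against 8 weeks (median -0.47) of which 0 passed, and its part in the Lrat values was not tested. None of these 8 markers was at 0 in liver.

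Cyp26a1 had 48.5, 65.2, 16.9 and 9.59 CPM at 8 weeks, 15.1, 36.7, 28.9 and 53.5 CPM at 10 weeks, and 153, 21.1, 25.2 and 37.7 CPM at 12 weeks in liver. The libraries of 1 age thus differed more than the ages did. Its log2 fold change at 12 against 8 weeks was 0.76 ± 0.68 (adjusted p = 0.64, edgeR), with replicate 1 of 12 weeks far above the rest. Rarb had 2.06, 2.23, 1.46 and 0.794 CPM at 8 weeks, 0.622, 1.22, 0.774 and 1.47 CPM at 10 weeks and 1.52, 1.44, 1.32 and 2.04 CPM at 12 weeks, all overlapping, with a log2 fold change of -0.07 ± 0.34 at 12 against 8 weeks (adjusted p = 0.94). Aldh1a2 was not tested in liver, where it had 2 to 16 counts per library at 8 weeks, 3 to 10 at 10 weeks and 3 to 9 at 12 weeks.

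In kidney, 0 of the 8 genes passed the adjusted p in any comparison of ages with edgeR, where 0.0567% of the 17649 genes tested passed at 12 against 8 weeks, 0.929% at 10 against 8 weeks and 0.482% at 12 against 10 weeks. At an unadjusted p under 0.05 the counts were 2 (Aldh1a2 and Aldh1a3), 2 (Aldh1a3 and Lrat) and 2 (Aldh1a2 and Rbp4), beside 11.7%, 16.5% and 16.4% of all genes, and limma-voom and DESeq2 called 0 in all 3 comparisons. Without the filter on low counts, edgeR called Aldh1a3 and Aldh1a7 at 12 against 8 weeks, Lrat and Aldh1a3 at 10 against 8 weeks and Aldh1a7 at 12 against 10 weeks. The share of all genes called without the filter is not given, so these calls are not read as a result about the 8 genes. Aldh1a3 showed the widest spread. Its libraries had 11.8, 4.12, 3.90 and 1.18 CPM at 8 weeks, 30.5, 17.2, 31.8 and 8.71 CPM at 10 weeks and 34.9, 5.42, 12.9 and 4.09 CPM at 12 weeks. Libraries of the same age differed widely, and all ages overlapped. The log2 fold change was 2.14 ± 0.70 at 10 against 8 weeks (adjusted p = 0.14) and 1.51 ± 0.70 at 12 against 8 weeks (adjusted p = 0.43), where it was 0.54 without replicate 1 of 12 weeks, the library with 34.9 CPM, and ran up to 2.26 over the other omissions. Urothelium, the lining of the renal pelvis, can be part of a kidney sample, and the summed CPM of 5 of its markers was 5.69 to 10.1 at 8 weeks, 9.83 to 12.5 at 10 weeks and 3.87 to 6.51 at 12 weeks, with none of the 5 at 0 in kidney. At 10 against 8 weeks 5 of 5 had log2 fold changes above 0 (median 0.73) and 0 passed, and their part in the Aldh1a3 values was not tested.

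**Figure D3:**
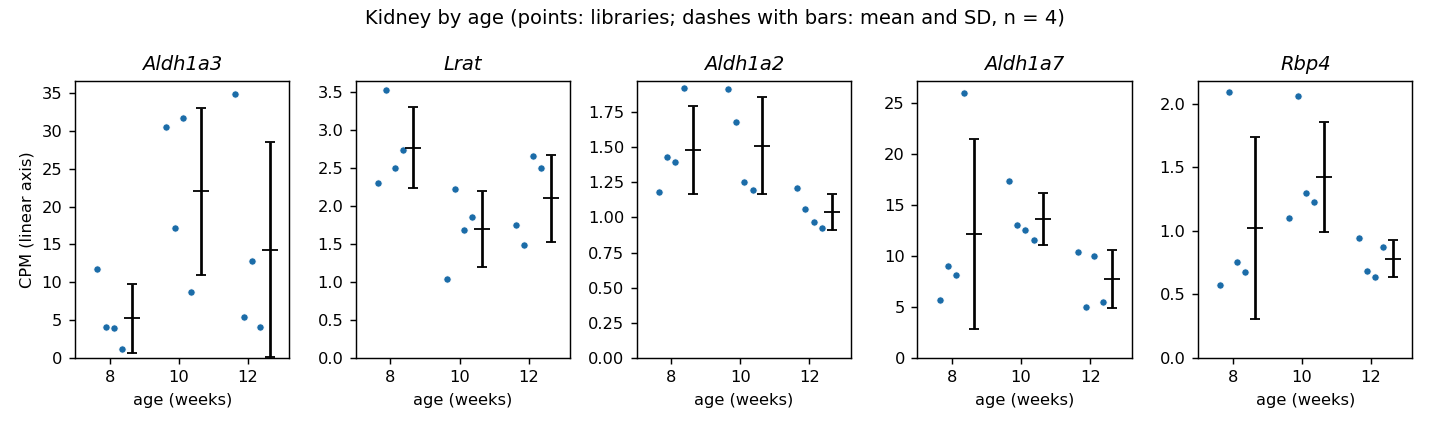
CPM (linear axis from 0) of Aldh1a3, Lrat, Aldh1a2, Aldh1a7 and Rbp4 in kidney at 8, 10 and 12 weeks. Points are the 4 libraries of each age, dashes with bars the mean and SD. Aldh1a3 spreads from 4.09 to 34.9 CPM at 12 weeks, and single libraries of 8 weeks stand apart for Aldh1a7 (26.0 CPM) and Rbp4 (2.09 CPM).

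Lrat had 2.30, 3.52, 2.50 and 2.74 CPM at 8 weeks, 1.04, 2.23, 1.68 and 1.85 CPM at 10 weeks and 1.74, 1.49, 2.66 and 2.50 CPM at 12 weeks in kidney. The 10-week libraries lay below all 8-week ones, as did those of 5.14% of all genes. At 10 against 8 weeks the log2 fold change was -0.67 ± 0.24 (adjusted p = 0.17, edgeR). Lrat was the single gene of the 8 without overlap in that comparison.

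Between 10 and 12 weeks the kidney libraries of Aldh1a1, Aldh1a7 and Rbp4 were all lower at 12 weeks without overlap, 3 of 8 genes against 3.51% of all genes. Aldh1a1 had 7.72, 8.20, 7.09 and 7.11 CPM at 10 weeks and 6.37, 3.28, 6.38 and 6.33 CPM at 12 weeks, and Aldh1a7 had 17.4, 13.1, 12.6 and 11.5 CPM and then 10.4, 4.99, 9.98 and 5.51 CPM. Their log2 fold changes were -0.45 ± 0.29 and -0.84 ± 0.39 with adjusted p of 0.47 and 0.31 (edgeR), so neither passed. At 8 weeks, Aldh1a1 (4.29, 6.36, 5.67 and 13.2 CPM) and Aldh1a7 (5.64, 8.98, 8.10 and 26.0 CPM) spread across the range of both later ages, with replicate 4 highest for both paralogues. Marker lists of other cells moved in both directions at 12 against 10 weeks in kidney. Log2 fold changes were below 0 for 5 of 5 urothelial markers (median -1.16) and 6 of the 6 adipocyte markers tested (median -1.15). They were also below 0 for 3 of 4 mesothelial, 4 of 5 podocyte and 4 of 6 medullary markers. Values lay above 0 for 6 of 6 proximal tubule markers (median 0.21) and 5 of 6 macrophage and dendritic cell markers (median 0.29). Of the stellate list, 4 of 6 were above 0. Of all these, 1 medullary marker passed, lower. Of the 5 kidney genes 3 had log2 fold changes above 0 and 2 below (median 0.02). The 1 that passed, lower, was Aqp2, the water channel of the collecting duct, named after its values were seen. Aqp2 is also on the medullary list and is the medullary marker that passed, so both lists report the same gene. Umod and Slc12a1 stand on both lists as well. Aqp2 had 67.0 to 112 CPM at 10 weeks and 34.6 to 52.2 CPM at 12 weeks. The part of these markers in the values of Aldh1a1, Aldh1a7 and Rbp4 was not tested.

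Rbp4 had 0.575, 2.09, 0.756 and 0.673 CPM at 8 weeks, 1.10, 2.06, 1.30 and 1.23 CPM at 10 weeks and 0.939, 0.681, 0.635 and 0.870 CPM at 12 weeks in kidney, and its log2 fold change at 12 against 10 weeks was -0.87 ± 0.36 (adjusted p = 0.25, edgeR). Fat also makes Rbp4, and the summed CPM of 7 adipocyte markers was 0.165 to 35.4 at 8 weeks, 2.83 to 16.2 at 10 weeks and 0.212 to 15.0 at 12 weeks, with none of the 7 at 0 at any age. The library with 35.4 CPM of these markers was replicate 2 of 8 weeks, the one with the highest Rbp4, while replicate 2 of 10 weeks had 2.06 CPM of Rbp4 beside 2.83 CPM of the markers. Their part in the Rbp4 values was not tested.

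Aldh1a2 had 1.18, 1.43, 1.39 and 1.92 CPM at 8 weeks, 1.91, 1.68, 1.25 and 1.20 CPM at 10 weeks and 1.21, 1.06, 0.968 and 0.923 CPM at 12 weeks in kidney. The 12-week libraries were at the lower end of the others and touched both ranges. Its log2 fold change was -0.51 ± 0.21 at 12 against 8 weeks (adjusted p = 0.36, edgeR) and -0.55 ± 0.21 at 12 against 10 weeks (adjusted p = 0.20). Cyp26a1 had 3 to 17 counts per kidney library, and Rarb had group means of 2.14 ± 0.75, 2.57 ± 0.99 and 2.01 ± 0.42 CPM at 8, 10 and 12 weeks. Neither differed between ages by more than the spread between libraries.

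In heart, Aldh1a2 was the only one of the 6 genes tested that passed the test in any comparison of ages, and it rose between 8 and 10 weeks. Its libraries had 3.20, 1.91, 1.54 and 1.98 CPM at 8 weeks, 6.15, 2.89, 4.77 and 7.71 CPM at 10 weeks and 2.95, 3.60, 1.93 and 3.22 CPM at 12 weeks. The 10-week libraries were the higher ones but for replicate 2, which lay within the 8-week range. The log2 fold change at 10 against 8 weeks was 1.32 ± 0.28 (SE) with an adjusted p of 0.031 (edgeR), where 0.76% of the 15137 genes tested were called higher. At 12 against 8 weeks it was 0.43 ± 0.29 (adjusted p = 0.38) and at 12 against 10 weeks -0.89 ± 0.27 (adjusted p = 0.25). In these 2 comparisons edgeR called 0 of the 6 genes, beside 4.56% and 0.0396% of all genes. At an unadjusted p under 0.05 it called 0 and 2 (Aldh1a2 and Rbp4), beside 23.4% and 11.7% of all genes. At the adjusted p limma-voom and DESeq2 called 0. Only the 10-week group of Rbp4 met the filter on low counts in heart, so its call cannot be set against that share.

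The adjusted p of Aldh1a2 in heart was 0.104, 0.103 and 0.0894 without replicates 2, 3 and 4 of 8 weeks, 0.0772, 0.0667 and 0.111 without replicates 1, 3 and 4 of 10 weeks, and 0.0578 with limma-voom. Mesothelium and epicardium, the outer lining of the organ, are known to make Aldh1a2. The summed CPM of 6 markers of these cells was 7.57 to 9.33 at 8 weeks, 10.9 to 55.8 at 10 weeks and 6.49 to 24.2 at 12 weeks, and none of the 6 was at 0 in heart. At 10 against 8 weeks, 5 of the 6 had log2 fold changes above 0 and 1 below, with a median of 3.60. Of the 6, 4 passed the adjusted p, all higher. The 10-week library with the lowest sum, replicate 2, was also the one with the lowest Aldh1a2 of its age, and the part of these markers in the result was not tested.

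**Figure D4:**
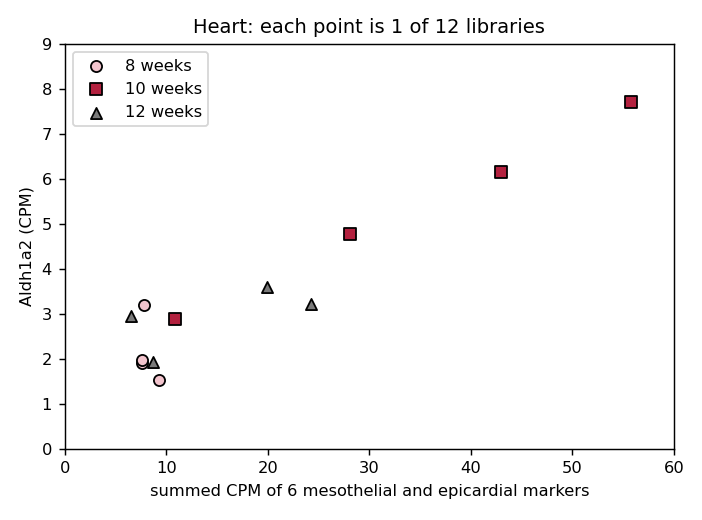
Aldh1a2 (vertical axis, CPM) beside the summed CPM of 6 mesothelial and epicardial markers (horizontal axis) in heart. Each point is 1 of 12 libraries, with circles for 8 weeks, squares for 10 weeks and triangles for 12 weeks. The 3 libraries with marker sums of 28.1, 42.9 and 55.8 CPM, all of 10 weeks, hold the 3 highest Aldh1a2 levels (4.77, 6.15 and 7.71 CPM).

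The other genes did not separate the ages in heart. Aldh1a1 had group means of 29.5 ± 5.93, 33.1 ± 7.54 and 28.2 ± 6.54 CPM at 8, 10 and 12 weeks, with log2 fold changes of 0.17 ± 0.17 at 10 against 8 weeks and -0.07 ± 0.17 at 12 against 8 weeks (adjusted p = 0.69 and 0.85, edgeR). Rarb was the steadiest, with 5.44 ± 1.27, 5.08 ± 0.19 and 5.26 ± 0.55 CPM and log2 fold changes between -0.10 and 0.04 in the 3 comparisons. Aldh1a3 had 0.667 ± 0.236, 0.810 ± 0.133 and 0.837 ± 0.175 CPM, and Lrat 0.417 ± 0.111, 0.775 ± 0.506 and 0.550 ± 0.335 CPM, both from at most 37 counts per library. None of these 4 genes passed the adjusted p in any comparison of ages.

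Rbp4 in heart had 2 to 8 counts per library at 8 weeks, 2, 15, 4 and 29 counts at 10 weeks and 0 to 11 counts at 12 weeks. Its level was highest in replicates 2 and 4 of 10 weeks (0.746 and 1.26 CPM). At 10 against 8 weeks its log2 fold change was 1.68 ± 0.82 (adjusted p = 0.33, edgeR). Only the 10-week group met the filter on low counts, so Rbp4 was tested in heart only through the age at which it was highest. The summed CPM of 5 liver genes, which include Alb, was 15.8 and 20.6 in the same 2 libraries, 0.697 and 0.247 in the other two of 10 weeks, 0 to 0.330 at 8 weeks, when 3 of the 5 were at 0, and 0.0983 to 4.05 at 12 weeks. Its part in the heart values of Rbp4 was not tested.

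**Figure D5:**
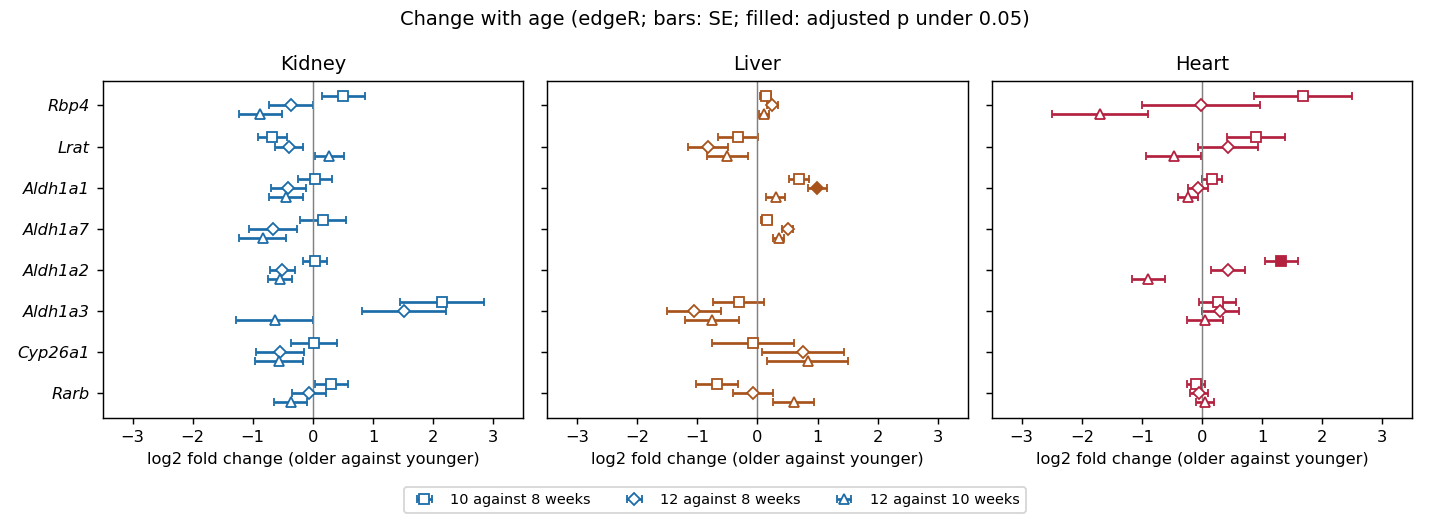
Log2 fold change (horizontal axis, older against younger age) with its SE for each gene in kidney, liver and heart, from edgeR. Squares stand for 10 against 8 weeks, diamonds for 12 against 8 weeks and triangles for 12 against 10 weeks, and filled symbols passed the adjusted p. Filled symbols are Aldh1a1 in liver (1.00 at 12 against 8 weeks) and Aldh1a2 in heart (1.32 at 10 against 8 weeks), and genes without symbols were not tested in that tissue.

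An interaction term in the model of all libraries addressed whether tissues differed in their change between 8 and 12 weeks. None of the 8 genes passed the adjusted p with edgeR for kidney against liver, kidney against heart or liver against heart, where 0.304%, 0.112% and 4.16% of the 19716 genes did. Aldh1a1 lay just outside the threshold, at -1.42 ± 0.34 for kidney against liver (adjusted p = 0.053) and 1.06 ± 0.32 for liver against heart (adjusted p = 0.054). At an unadjusted p under 0.05, 3 genes (Aldh1a1, Aldh1a3 and Aldh1a7) differed between kidney and liver, 1 (Aldh1a2) between kidney and heart and 2 (Aldh1a1 and Aldh1a2) between liver and heart, beside 11.2%, 11.1% and 18.4% of all genes. Omission of a single library brought Aldh1a1 past the threshold in 7 of 36 cases for kidney against liver (heart 10 weeks replicate 2, heart 12 weeks replicate 4, kidney 8 weeks replicates 1 and 3, liver 8 weeks replicate 3, liver 10 weeks replicate 2 and liver 12 weeks replicate 4, lowest adjusted p 0.0209). It did so in 7 of 36 cases for liver against heart as well (heart 8 weeks replicate 1, heart 12 weeks replicate 4, kidney 8 weeks replicates 1 and 4, kidney 12 weeks replicate 2, liver 8 weeks replicate 3 and liver 12 weeks replicate 4, lowest adjusted p 0.0207). DESeq2 called Aldh1a1 in the comparisons of liver with both other tissues, and limma-voom called it for liver against heart. The shares of all genes that these tools called are not given. The log2 difference for Aldh1a3, kidney against liver, was 2.52 ± 1.00 (adjusted p = 0.29).

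The 8 genes were also placed within a list of 48 genes of retinoid delivery, storage, oxidation, removal and reception. In kidney, 38 of the 48 were tested and 0 passed the adjusted p in any comparison of ages with edgeR, limma-voom or DESeq2, where edgeR called 0.0567%, 0.929% and 0.482% of all genes at 12 against 8, 10 against 8 and 12 against 10 weeks. At an unadjusted p under 0.05 edgeR called 10, 5 and 4 of the 38, beside 11.7%, 16.5% and 16.4% of all genes. In liver, 39 were tested and 2 passed at 12 against 8 weeks, both higher, where 0.177% of all genes were called higher. They were Aldh1a1 and Rdh16, a dehydrogenase that oxidises retinol. Rdh16 rose from 93.0 ± 16.6 CPM at 8 weeks through 114 ± 17.1 at 10 weeks to 160.3 CPM (147 to 185) at 12 weeks in liver, a log2 fold change of 0.78 ± 0.14 with an adjusted p of 0.041 (edgeR), while in kidney it had 124 ± 6.10, 110 ± 19.4 and 115 ± 11.9 CPM. This difference between the tissues passed its own test, at -0.90 ± 0.19 for kidney against liver (adjusted p = 0.026). Of the 39 genes in liver, 24 had a log2 fold change above 0 at 12 against 8 weeks, with a median of 0.08 beside -0.00 for all genes. The call of Rdh16 in liver was kept only without replicate 2 or 3 of 10 weeks or replicate 4 of 12 weeks and was lost in the other 9 omissions of a liver library, with adjusted p of 0.0597 to 0.114, and its difference between tissues was lost without kidney 8 weeks replicate 4 (0.0694) and kidney 12 weeks replicates 1, 2 and 3 (0.0723, 0.0505 and 0.0506).

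In heart, 29 of the list were tested, and Aldh1a2, Lrp2 and Ttr passed at 10 against 8 weeks, all higher, where 0.76% of all genes were called higher, with a median log2 fold change of 0.05 for the 29 and -0.00 for all genes. Lrp2, an uptake receptor of the kidney tubule, had 0.0401 ± 0.0584 CPM at 8 weeks and 0.787 ± 0.644 CPM at 10 weeks (log2 fold change 4.10 ± 0.92, adjusted p = 0.041). Ttr, the plasma partner of Rbp4, had 0.106 ± 0.0286 CPM at 8 weeks and 1.07 ± 1.02 CPM at 10 weeks (3.27 ± 0.75, adjusted p = 0.044). Counts of Lrp2 per library ran from 0 to 3 at 8 weeks, 2 to 39 at 10 weeks and 1 to 18 at 12 weeks. Those of Ttr ran from 2 to 3, 4 to 50 and 4 to 11. Only the 10-week group of each gene met the filter on low counts, so both were tested only through that age. Their calls there thus cannot be set against the share of all genes. Neither Lrp2 nor Ttr passed with limma-voom (0.123 and 0.200). Over the 12 omissions of a heart library the adjusted p ran from 0.00572 to 0.123 for Lrp2, which kept its call only without 10 weeks replicate 2 or 12 weeks replicates 1, 2 or 4, and from 0.0257 to 0.158 for Ttr, which kept it only without 10 weeks replicates 1 or 3 or 12 weeks replicate 2. Both levels are far below those of the organs known for these genes, 1903 CPM of Lrp2 in kidney and 5299 CPM of Ttr in liver. The liver and mesothelial marker sums of the same heart libraries are given above, and the summed CPM of 5 kidney genes was 0.330 to 1.44 at 8 weeks and 0.247 to 0.896 at 10 weeks in heart.

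Between tissues, 12 of 44 listed genes were higher and 29 lower in kidney than in liver (median log2 fold change -0.92, all genes 0.16), 27 were higher and 13 lower in kidney than in heart (median 1.05, all genes 0.15), and 29 were higher and 13 lower in liver than in heart (median 2.55, all genes 0). The shares of all genes that passed were 83.1%, 86.1% and 84.2%, near those of the list. By role, the gene with the highest level per kilobase of merged exon differed by organ. For delivery and uptake it was Lrp2 in kidney (114 CPM per kilobase) and Ttr in liver (2777) and heart (0.256). For storage and cleavage it was the lipase Lpl in kidney (73.6) and heart (686) and the acyltransferase Dgat1 in liver (6.39).

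Among the retinol and retinal oxidoreductases, Dhrs3, which reduces retinal back to retinol, led in kidney (33.4 CPM per kilobase) and heart (20.4), and Rdh7 led in liver (602). Of the genes listed as retinal dehydrogenases, Aldh8a1 led in kidney (46.2), above Aldh1a3 as the next (2.43), whereas Aldh1a1 led in liver (124) and heart (2.82). These are RNA levels, and activity on retinal was not measured. Cyp26b1, another retinoic acid hydroxylase, led in kidney (1.65) and heart (3.61), and Cyp26a1 led in liver (21.5). The partner receptor Rxra led the receptors in kidney (17.8), liver (97.3) and heart (12.1), where Rarb had 0.268, 0.169 and 0.629 CPM per kilobase.

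The protein-coding genes whose pattern over the 36 libraries was most like that of each gene were found by the root mean square difference of log2 CPM, each gene centred on its mean, among 15007 genes. For Rbp4 these were Rdh7 (0.58) and C4bp (0.66), for Lrat Lgr5 (0.57) and Il12rb1 (0.58), for Aldh1a1 Gch1 (0.49) and Rnase4 (0.56) and for Aldh1a7 Nr1i2 (0.60) and Cyp4a12b (0.69). For Aldh1a2 they were Hdgfl3 (0.56) and St3gal2 (0.57), for Aldh1a3 Gcnt3 (0.59) and Calml3 (0.69), for Cyp26a1 Agmat (0.76) and Xkr9 (0.77) and for Rarb Ttl (0.36) and Micall1 (0.36). These differences compare with a spread of the gene itself over the libraries of 6.11 for Rbp4 and 0.89 for Rarb.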

How the data were processed

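Counts of read pairs per gene were deposited for 36 polyA libraries. According to the methods and processing notes, the authors checked reads with FastQC 0.11.9, trimmed them with cutadapt 4.2 and aligned and counted them with STAR 2.7.11b on GRCm39. The column without strand was used here (first-strand share 49.8% to 50.2%). Between 21031599 and 33637390 pairs per library were counted. GENCODE gave gene models for 78168 of the 78239 identifiers.

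The authors' filter was applied: a gene needed, in 1 or more age groups, a mean of 10 or more counts and at least 2 nonzero libraries. Ages were compared within each tissue, and tissues and their changes in 1 model of all 36 libraries, with TMM factors and the quasi-likelihood test of edgeR 4.0.16 in R 4.3.3 and Benjamini-Hochberg adjustment over all genes kept (threshold 0.05). Groups came from the labels. Within a tissue, the authors describe the libraries of each age group as biological replicates. The paper describes fewer mice at each age than libraries, so some mice gave several tissues. Which libraries share a mouse is not stated. Across tissues, p-values measure only the spread between these libraries, treated as unpaired. The limit given for a count of 0 covers counting error only. The SE of a log2 fold change comes from the edgeR fit and includes the spread between libraries. limma-voom (limma 3.58.1), DESeq2 1.42.0, other scalings, no filter, stranded counts, a replicate block and omission of each library were alternatives. The steps were tested on simulated data. The 8 genes and all lists were chosen with earlier results of these data known. Named genes were the 8 genes, listed pathway genes that passed a test of ages or of changes, the listed gene of each role with the highest level per kilobase in each tissue, and the 2 nearest genes by pattern (prior count 2). The leading genes of 1 role are not reported here.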

Additional observations from a re-analysis of the deposited data

Results flagged for a closer look

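In 7 of the 72 groups of 4 libraries (8 genes in 9 groups), the highest or lowest library stood apart by Dixon's criterion. Normally distributed values meet it in about 1 in 20 groups. CPM from few counts are not so distributed. Cyp26a1 in heart at 12 weeks, with 0 in every library, could not be flagged. The 7 are therefore not set against that rate. Aldh1a1 in kidney at 12 weeks had a library at 3.28 CPM beside 6.33 to 6.38 CPM in the others. Aldh1a7 in kidney at 8 weeks had 26.0 CPM beside 5.64 to 8.98 CPM, and Rbp4 in kidney at 8 weeks had 2.09 CPM beside 0.575 to 0.756 CPM. Cyp26a1 in liver at 12 weeks had 153 CPM beside 21.1 to 37.7 CPM. Aldh1a2 in liver at 12 weeks had 0.436 CPM beside 0.130 to 0.144 CPM, from 3 to 9 counts. Cyp26a1 in heart at 10 weeks had 0.0411 CPM, a single count, beside 0 in the others. Rarb in heart at 12 weeks had 4.44 CPM beside 5.53 to 5.56 CPM.

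The change of Rdh16 between 8 and 12 weeks differed between kidney and liver by a log2 value of -0.90 (interaction, adjusted p = 0.026, edgeR).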

How the results depend on the processing

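No alternative turned the direction of a called value. The counts of genes that differed between tissues stayed at 8, 8 and 7 under the 5 other settings and the 36 omissions of a library. DESeq2 called 3 genes in liver at 12 against 8 weeks (Aldh1a1, Aldh1a7 and Rbp4), 1 at 10 against 8 weeks, 1 at 12 against 10 weeks, and 1 (Aldh1a1) for the change of kidney against liver and 1 for that of liver against heart. limma-voom called 0 in heart at 10 against 8 weeks and 1 for the change of liver against heart. Without the count filter, 2, 2 and 1 genes passed in kidney (12 against 8, 10 against 8 and 12 against 10 weeks), 2 and 1 in liver (12 against 8 and 10 against 8 weeks) and 1 in heart (12 against 10 weeks). Shares of all genes called with these alternatives, with the block or after omission of a library are not given. Counts of the 8 genes under them are therefore not set against a share or read as a result about these genes.

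When each library was left out in turn, the count ran from 0 to 2 in liver at 12 against 8 weeks, from 0 to 1 in heart at 10 against 8 weeks, and from 0 to 1 for the change of kidney against liver and of liver against heart. The cause of these differences was not tested.

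Mice were assigned to an age at death, so equal replicate numbers cannot pair libraries across ages. Over 36 such pairs the correlation of deviations ran from -0.170 to 0.118 (median 0.0025). Over 36 pairs of equal library numbers across tissues it ran from -0.00884 to 0.164 (median 0.0545, beside -0.0193 for other pairs), with 4 pairs over 0.1. The lowest of these 36 thus lay above the median of the other pairs. Some mice gave several tissues, since the paper describes fewer mice at each age than libraries. Whether tissues of equal number share a mouse was not tested, and the main tests between tissues treated the libraries as unpaired. With the number as a replicate block, 0 genes passed in liver at 12 against 8 weeks (Aldh1a1 1.01, adjusted p = 0.0560, edgeR) and 1 in kidney at 10 against 8 weeks (Aldh1a3 2.34, adjusted p = 0.0170, edgeR), and the block changed no other count.

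Depth limits the genes near 0: Cyp26a1 and Aldh1a7 in heart and Aldh1a2 in liver were not tested between ages.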
